A study of Mus musculus with 8 samples.

Results

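The transcripts described here are those of the mitochondrial genome itself, measured in astrocytes sorted from 2 brain regions. Astrocytes are the glia that clear neurotransmitters and supply neurons with metabolites. Members were all genes whose mouse symbol begins with mt-, matched by Ensembl identifier in the count tables, which gave 37 of 55417 gene rows. They are 13 protein-coding (mRNA) genes, 2 ribosomal RNA (rRNA) genes and 22 transfer RNA (tRNA) genes. Wild-type mice at postnatal day 29, 2 females (mice 2 and 3) and 2 males (mice 1 and 4), each contributed astrocytes from cortex and from subcortical tissue, which makes 4 libraries for each region. No allele, treatment or strain beyond "WT" is named in the labels, and the sources used here do not give the marker or reporter used in the sort. Libraries are named below by region and mouse number, for example cortical 4. All are 3′-end libraries primed at poly(A), with 3537852 to 4060891 gene counts in cortical and 2484717 to 3829804 in subcortical libraries.

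The mitochondrial genome is a small circle that encodes core subunits of respiratory complexes I, III and IV and of ATP synthase, together with the rRNAs and tRNAs that translate them. It is transcribed as long precursors in which tRNAs punctuate most of the other genes. The precursors are cut at the tRNAs, and most of the mRNAs then receive a short poly(A) tail. Because a 3′-end library is meant to count about 1 fragment per tail, counts were not divided by gene length. A level in CPM, the count scaled to a common library size, stands for fragments captured and not for transcription. Members whose mature RNA carries no tail, mt-Nd6 and the tRNAs, had counts as well, and what was captured for them was not tested. In bulk libraries, fewer cells of a type and less RNA per cell cannot be told apart.

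Of the 37 members, 25 had any count and 16 had counts in all 8 libraries, while 12 were listed at 0 in every library. Those at 0 were 5 mRNA genes, namely mt-Co2 and mt-Co3, which encode subunits of cytochrome c oxidase, mt-Atp6 and mt-Atp8, which encode subunits of ATP synthase, and mt-Nd4l, which encodes a subunit of complex I, and 7 tRNA genes. The zeros were not scattered along the genome. Between mt-Co1 and mt-Nd4 lie 11 genes in genome order, and 9 of them were at 0. The exceptions there were mt-Nd3, with 1238 counts over the 8 libraries, and mt-Tr, with 16. Only 3 members at 0 lay outside the stretch, the tRNA genes mt-Tn, mt-Ty and mt-Th. Both flanking genes had counts, 31078 for mt-Co1, a further oxidase subunit, and 1082627 for mt-Nd4, a further complex I subunit. These were 1.06% and 36.8% of all mitochondrial counts, so the step was much smaller at mt-Co1.

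That stretch has a near-identical copy in the nuclear genome. In the GENCODE M21 annotation (build GRCm38, whereas the submitters' processing notes name GRCm39) 7 neighbouring pseudogenes on chromosome 1 follow the order of the mitochondrial genes. Aligned to their mitochondrial counterparts, Gm28661 matched mt-Co2 at 681 of 681 bases, Gm10925 matched mt-Atp6 at 678 of 678, Gm28437 matched mt-Co3 at 783 of 783 and Gm10222 matched mt-Nd4l at 294 of 294. Gm28439 matched the first 876 of the 1378 bases of mt-Nd4 without a difference. The alignment of mt-Nd3 with Gm28438 held 1 substitution, T3C, and that of mt-Co1 with Gm29216 held 1, A1066T, where the mitochondrial base comes first, the position counts from 1 at the 5′ end of the mitochondrial gene, and the pseudogene's base follows. The stretches below are shown because they let members at 0 be compared with members that have counts. In the ends of mt-Co2, mt-Atp6 and mt-Co3 and in the middle of mt-Nd4, capitals mark bases that are identical in the pseudogene's alignment. Lower case in those lines lies past the end of the pseudogene as annotated and marks no mismatch. The last bases of mt-Co2 are also present in a transcript from outside the mitochondrial genome. In the other lines the capital marks the substituted base.
mt-Co2 (bases 625 to 684): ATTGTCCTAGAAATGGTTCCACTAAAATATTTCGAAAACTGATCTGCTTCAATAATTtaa
mt-Atp6 (bases 622 to 681): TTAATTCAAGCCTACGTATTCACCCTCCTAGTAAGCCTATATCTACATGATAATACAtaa
mt-Co3 (bases 725 to 784): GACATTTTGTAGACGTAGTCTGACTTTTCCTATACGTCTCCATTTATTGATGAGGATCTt
mt-Nd4 (bases 847 to 906): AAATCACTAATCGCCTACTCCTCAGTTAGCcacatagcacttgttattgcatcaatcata
mt-Nd3 (bases 1 to 33): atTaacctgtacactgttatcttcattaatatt
Gm28438 (bases 1 to 33): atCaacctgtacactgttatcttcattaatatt
mt-Co1 (bases 1063 to 1096): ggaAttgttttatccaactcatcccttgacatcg
Gm29216 (bases 10 to 43): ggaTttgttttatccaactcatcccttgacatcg

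Counted in windows of 50 bases, 100% of the windows of mt-Co2, 99.9% of mt-Co3, 99.5% of mt-Atp6 and 98.8% of mt-Nd4l were also present in a transcript from outside the mitochondrial genome. For mt-Nd3 it was 98.0%, and for mt-Co1 51.1% overall but 100% of the windows in its last 150 bases. For mt-Nd4 it was 62.2% overall and 0% in the last 150 bases. None of the windows of mt-Rnr1, mt-Nd1, mt-Nd6 or mt-Cytb was shared, and 1.0% of mt-Rnr2, 8.2% of mt-Nd2 and 7.6% of mt-Nd5 were. In mt-Nd2 the shared windows lay near the 3′ end, where they made up 52.5% of the last 150 bases. The 7 pseudogenes themselves held 115 counts over all libraries. The row for reads without a unique alignment was 0 in all 8 tables, and the sources used here do not say how reads with several alignments were treated. Of the members at 0, mt-Atp8 shared no full window with an annotated transcript, although its last 43 bases lie inside Gm10925. Nuclear sequence outside annotated transcripts was not searched. The tRNA genes of the stretch have no pseudogene of their own in this annotation and could not be compared in this way. The part of shared sequence in the zeros was not tested, and neither a level nor an absence of expression is read here for the 5 mRNA genes at 0. The plot of counts in genome order sets both measures side by side.

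**Figure D1:**
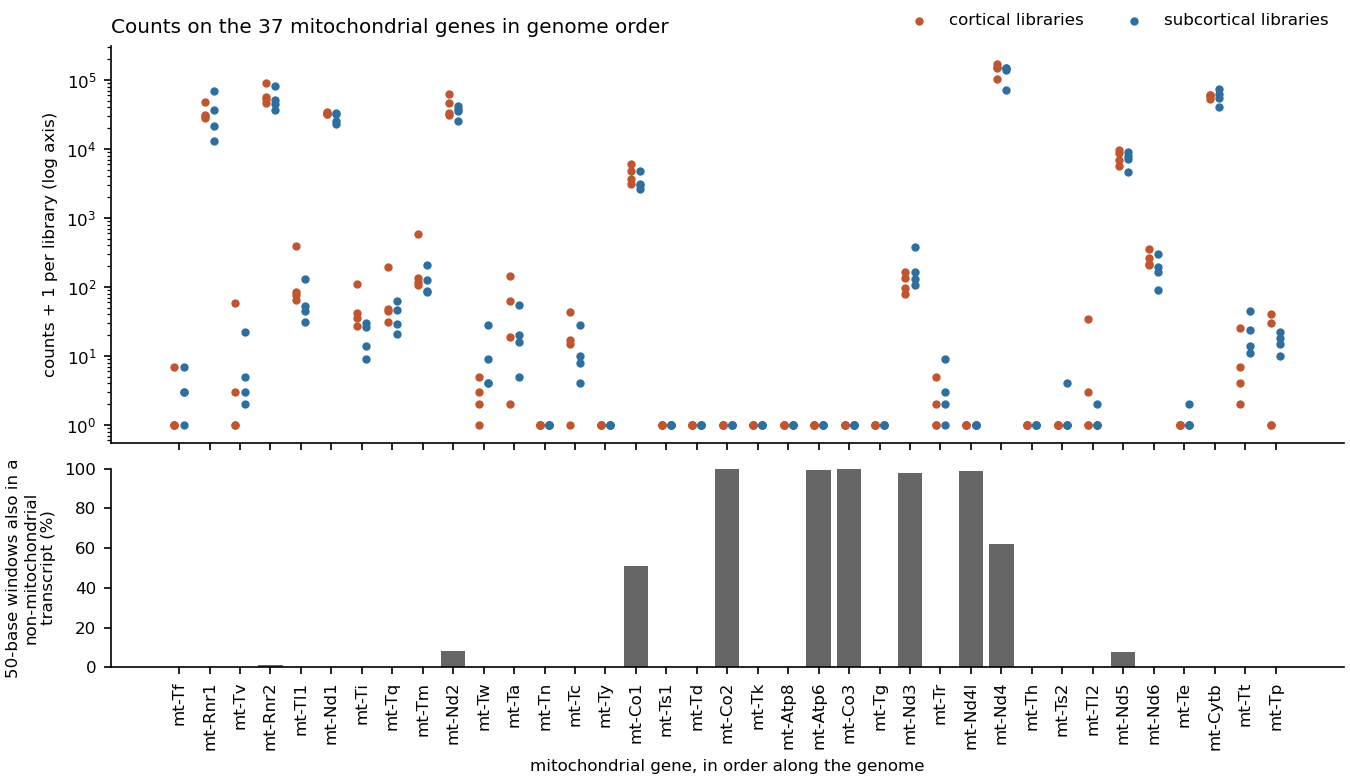
Upper panel: counts plus 1 (log axis) of each of the 37 mitochondrial genes, in genome order, with 1 point per library (orange cortical, blue subcortical). Lower panel: percent of 50-base windows of each gene also found in a transcript from outside the mitochondrial genome. The genes mt-Co2, mt-Atp6, mt-Co3 and mt-Nd4l, at 98.8 to 100%, are at 0 counts in every library, and mt-Nd3, at 98.0%, has 78 to 377 counts.

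Mitochondrial genes took 8.95% of gene counts in cortical 1, 10.4% in cortical 2, 9.82% in cortical 3 and 11.3% in cortical 4. They took 13.6% in subcortical 1, 13.1% in subcortical 2, 9.40% in subcortical 3 and 11.6% in subcortical 4. Subcortical 1 and 2 stood above every cortical library, while subcortical 3 stood below 3 of the 4. Within mice, the cortical library was 4.66 percentage points lower in mouse 1, 2.71 lower in mouse 2 (differences of -4.66 and -2.71) and 0.26 lower in mouse 4 (-0.26), and 0.42 higher in mouse 3. The means were 10.1 ± 0.99% and 11.9 ± 1.90% (SD, n = 4), and the difference of -1.80 had a two-sided p of 0.171 in an exact permutation test over libraries (smallest possible 0.0286). With the mice as pairs the exact sign-flip p was 0.375 (smallest possible 0.125).

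The total behind that share differed between the regions. The 10 most abundant genes that are not mitochondrial took 14.4 to 16.9% of cortical and 20.5 to 28.3% of subcortical counts, with no overlap (exact two-sided permutation p = 0.0286, 4 against 4 libraries). With the mice as pairs the exact sign-flip p was 0.125, the smallest that 4 pairs can give. The 10 were picked by their mean share over these same 8 libraries, so a gene could enter through the region where it is high. Among the 10, Slc6a11, the gene of a GABA transporter, took 1.05 to 1.41% and 3.76 to 5.83%. The p-values of this list and the share without it therefore describe these libraries and are no independent test. With these 10 genes out of the total, the mitochondrial share was 12.04 ± 1.31% in cortical and 15.7 ± 2.98% in subcortical libraries (SD, n = 4). The exact permutation p was 0.0857, and the cortical value was the lower one in 4 of 4 mice. Paired by mouse, the exact sign-flip p was 0.125, again the smallest possible. The trimmed mean (TMM) scaling used for CPM below moves the same way, with factors of 1.03 to 1.15 for cortical and 0.843 to 1.06 for subcortical libraries. As a percentage of the TMM-scaled library size, a setting added after the data were seen, the share was 9.46 ± 1.32% and 13 ± 3.11% (SD, n = 4, exact permutation p = 0.114, exact sign-flip p with the mice as pairs = 0.25).

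Within the mitochondrial counts, 6 members held 96.7%. These were mt-Nd4 with 36.8% of all mitochondrial counts, mt-Cytb, the subunit of complex III, with 15.8%, mt-Rnr2, the large ribosomal RNA, with 15.8%, mt-Nd2, of complex I, with 10.6%, mt-Rnr1, the small ribosomal RNA, with 9.44%, and mt-Nd1, of complex I, with 8.31%. Divided by gene length instead, mt-Nd4 remained first, with 785651 counts per kilobase over the 8 libraries against 406419 for mt-Cytb and 255856 to 301841 for the other 4. Next came mt-Nd5, of complex I, with 2.04% of mitochondrial counts and mt-Co1 with 1.06%. These shares and ranks hold among the counts as deposited, in which 5 mRNA genes are at 0. In the last 150 bases, 100% of the windows of mt-Co1 are shared and 0% of those of mt-Nd4. No order of all mitochondrial transcripts is therefore read here. The member mt-Nd6, the only mRNA gene on the strand that carries few genes and one whose mRNA is known to lack a poly(A) tail, held 0.060%, and mt-Nd3 held 0.042%.

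The balance of rRNA to mRNA varied more between libraries than between regions. Both rRNAs together took 27, 22.1, 19.5 and 30.2% of mitochondrial counts in cortical 1 to 4, and 18.1, 15.3, 34.4 and 34.2% in subcortical 1 to 4. Subcortical 3 and 4 were thus the highest and subcortical 1 and 2 the lowest of all 8 libraries. The cortical library was higher in mice 1 and 2, by 8.85 and 6.80 percentage points, and lower in mice 3 and 4, with differences of -14.9 and -4.05. The means of 24.7 ± 4.79% and 25.5 ± 10.2% (SD, n = 4) differed by less than either spread (exact permutation p = 0.857). The 2 rRNAs did not keep a fixed ratio. Counts of mt-Rnr2 per count of mt-Rnr1 ranged from 1.48 to 2.02 in cortical libraries and from 1.19 (subcortical 4) to 2.87 (subcortical 2) in subcortical ones.

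**Figure D2:**
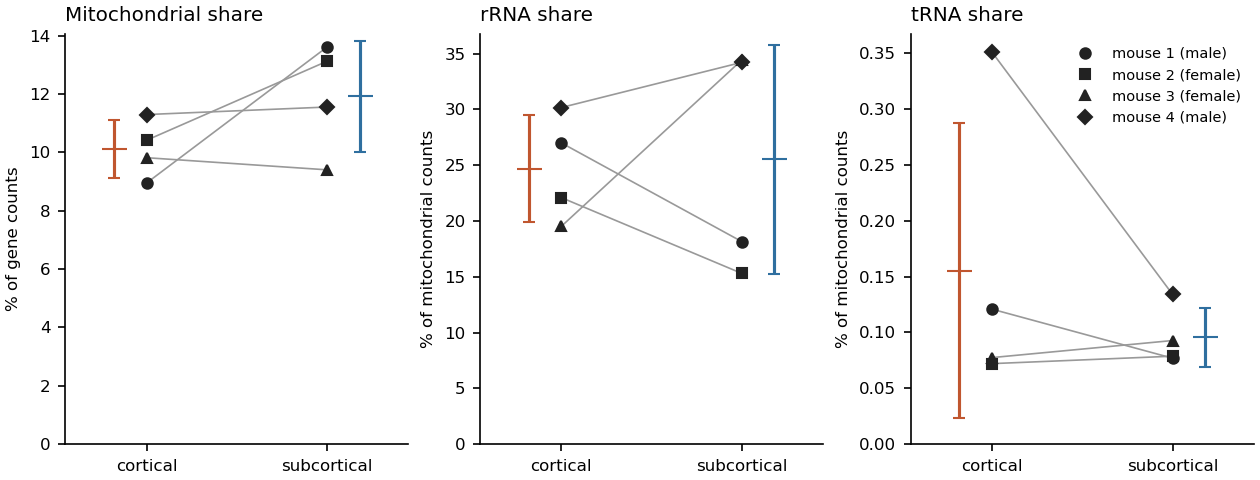
Left: percent of gene counts on mitochondrial genes. Middle and right: percent of mitochondrial counts on the 2 rRNA genes and on the tRNA genes. Symbols are mice, lines join the libraries of a mouse, and bars show the mean and SD of 4 libraries; subcortical 1 and 2 are highest in the left panel and lowest in the middle one, and cortical 4 stands alone in the right one at 0.351%.

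Between the regions, no mitochondrial gene was called higher in cortical astrocytes and 2 were called lower, mt-Cytb and mt-Nd3. The low-count filter left 18 members to test (8 mRNA, 2 rRNA and 8 tRNA genes). By edgeR's quasi-likelihood test with Benjamini-Hochberg adjustment over 11781 genes, 2 of the 18 passed an adjusted p of 0.05. Over all tested genes 6.81% were called, 3.42% higher and 3.39% lower. The median log2 fold change (cortical minus subcortical) of the 18 was -0.35, beside -0.01 for all genes. In CPM, 0 of the 18 had regions that did not overlap, beside 12.2% of all genes. All 8 tested mRNA genes and both rRNA genes had a negative log2 fold change, beside 5994 of all 11781 tested genes. Of the 8 tRNA genes, 6 had a positive one, beside 5787 of all tested genes. The tRNA count rests on cortical 4, without which 1 of the 8 was positive and 7 were negative, and in the fit blocked by mouse 4 were positive and 4 negative. Among the mRNA and rRNA genes the sign of mt-Nd6 turned without subcortical 2 or subcortical 4, and no other sign turned in the alternatives run. These members come from shared precursors in the same libraries and are not independent of each other.

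The gene mt-Cytb (ENSMUSG00000064370) encodes cytochrome b, the mitochondrially encoded subunit of complex III. It stood at 13147, 15770, 14045 and 14008 CPM in cortical 1 to 4 and at 30475, 26211, 14145 and 17266 CPM in subcortical 1 to 4. The cortical libraries lay close together, subcortical 1 and 2 stood far above them, and subcortical 3 fell within their range. The log2 fold change was -0.63 (SE 0.18, edgeR adjusted p = 0.041), with the cortical library lower in 4 of 4 mice. In the fit blocked by mouse its adjusted p was 0.057, which left mt-Nd3 as the single called member (0 higher and 1 lower of 18, beside 3.72 and 3.8% of all genes and 7.52% in either direction). Without subcortical 1 the log2 fold change was -0.43 with an adjusted p of 0.201. It also missed the threshold without subcortical 2 (0.116) or without cortical 1, 2, 3 or 4 (0.115, 0.054, 0.10 and 0.072).

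The gene mt-Nd3 (ENSMUSG00000064360) encodes a small membrane subunit of complex I. It had 134, 161, 78 and 95 counts in cortical 1 to 4 and 377, 127, 105 and 161 in subcortical 1 to 4. In CPM this was 33.0, 41.7, 18.1 and 22.7 against 156, 60.6, 36.5 and 44.6. Subcortical 1 was far the highest, and subcortical 3 fell within the cortical range. The log2 fold change was -1.36 (SE 0.37, edgeR adjusted p = 0.025), with the cortical library lower in 4 of 4 mice. Blocked by mouse it was -1.19 (edgeR adjusted p = 0.0062). Without subcortical 1 it was -0.70 with an adjusted p of 0.271, and the call was also lost without cortical 1, 3 or 4 (0.054, 0.104 and 0.061). The call rests on a gene of which 98.0% of the windows are shared with another transcript.

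The other complex I genes did not pass the test. The level of mt-Nd4 was 25306, 40075, 39548 and 35530 CPM in cortical 1 to 4 and 61184, 71005, 24825 and 38284 CPM in subcortical 1 to 4. The subcortical libraries thus held the lowest and the highest values of all 8, and the log2 fold change was -0.48 (SE 0.23, edgeR adjusted p = 0.279). The level of mt-Nd2 was 8225, 7919, 10715 and 14918 CPM in cortical and 15459, 17176, 8719 and 11744 CPM in subcortical 1 to 4, with the cortical library lower in mice 1 and 2 and higher in mice 3 and 4 (log2 fold change -0.35, SE 0.20, edgeR adjusted p = 0.430). The level of mt-Nd1 was 7867, 8952, 7449 and 7952 CPM in cortical and 13102, 12035, 8020 and 9158 CPM in subcortical 1 to 4, lower in the cortical library of 4 of 4 mice (log2 fold change -0.39, SE 0.16, edgeR adjusted p = 0.164).
Subcortical 1 and 2 were the upper and subcortical 3 and 4 the lower of the subcortical libraries for mt-Nd4, mt-Nd2, mt-Nd1 and mt-Nd5.

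The level of mt-Nd5 was 1379, 2294, 1594 and 2319 CPM in cortical and 2966, 3827, 1629 and 2521 CPM in subcortical 1 to 4, lower in the cortical library of 4 of 4 mice (log2 fold change -0.53, SE 0.21, edgeR adjusted p = 0.179). Without subcortical 3, mt-Nd1, mt-Nd4 and mt-Nd5 were called lower too, with log2 fold changes of -0.50, -0.70 and -0.71 (edgeR adjusted p = 0.033, 0.017 and 0.023). Other libraries moved these values the opposite way: without subcortical 2 mt-Nd4 was at -0.24 and mt-Nd5 at -0.32 (edgeR adjusted p = 0.685 and 0.517), and without subcortical 1 mt-Nd1 was at -0.27 (0.437). In mt-Nd6 the difference was smallest among the mRNA genes, at 63.4 ± 15.4 against 67.8 ± 26.8 CPM (SD, n = 4, log2 fold change -0.09, 95% interval -0.66 to 0.48). Among the mitochondrially encoded cytochrome oxidase genes only mt-Co1 had counts. Its levels were 894, 1230, 720 and 1459 CPM in cortical and 1300, 1415, 900 and 1330 CPM in subcortical 1 to 4. The ranges largely coincided (log2 fold change -0.20, SE 0.20, edgeR adjusted p = 0.689).

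The rRNA genes were lower in most cortical libraries without passing the test. The level of mt-Rnr2 was 14104, 13844, 10751 and 21658 CPM in cortical and 18701, 17678, 18037 and 22783 CPM in subcortical 1 to 4. Mouse 4 was highest in both regions, and the cortical library was the lower one in 4 of 4 mice (log2 fold change -0.36, SE 0.17, edgeR adjusted p = 0.291). Without cortical 4 it was called, at -0.58 (edgeR adjusted p = 0.020), and without cortical 3 it was at -0.22 (0.632). The level of mt-Rnr1 was 6981, 7830, 7258 and 11477 CPM in cortical and 8979, 6157, 12639 and 19154 CPM in subcortical 1 to 4. Mouse 4 was again highest in the cortical and in the subcortical libraries, and subcortical 2 was the lowest of all 8 (log2 fold change -0.48, SE 0.24, edgeR adjusted p = 0.310). Without subcortical 2 it was called, at -0.70 (edgeR adjusted p = 0.049), and without subcortical 4 it was at -0.14 (0.831).

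**Figure D3:**
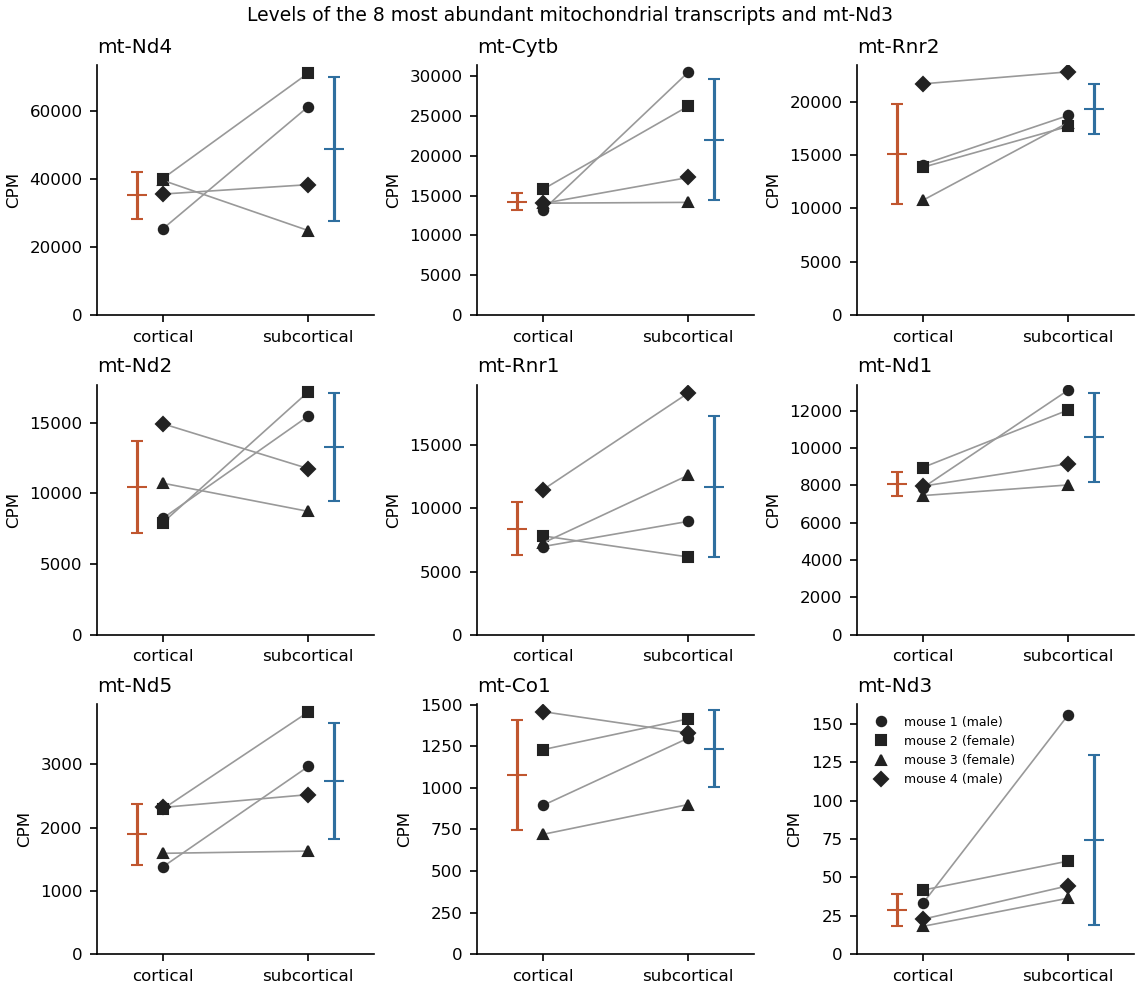
CPM on TMM-scaled library sizes of the 8 most abundant members and of mt-Nd3. Symbols are mice, lines join the libraries of a mouse, and bars give the mean and SD of 4 libraries; for mt-Cytb the cortical values lie between 13147 and 15770 CPM and the subcortical ones between 14145 and 30475 CPM.

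**Figure D4:**
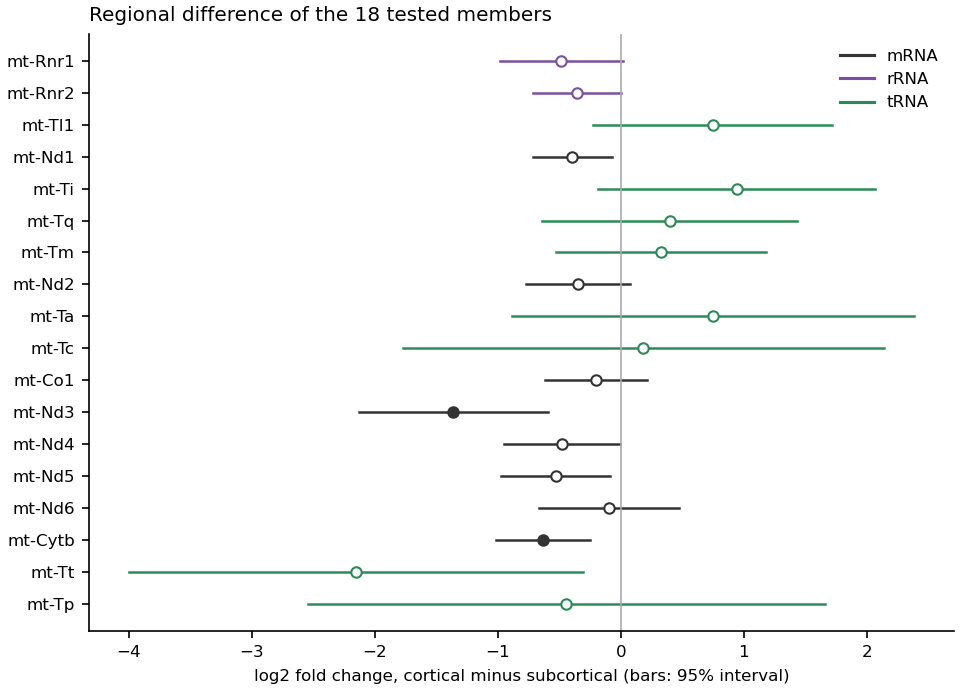
Log2 fold change (cortical minus subcortical) with its 95% interval for the 18 tested members in genome order, coloured by class. Filled points passed an adjusted p of 0.05; only mt-Nd3 and mt-Cytb are filled, and the intervals of the tRNA genes are the widest.

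Mature tRNAs carry no poly(A) tail, and their genes together held only 0.072 to 0.351% of mitochondrial counts. The 8 that could be tested were those for leucine (mt-Tl1), isoleucine (mt-Ti), glutamine (mt-Tq), methionine (mt-Tm), alanine (mt-Ta), cysteine (mt-Tc), threonine (mt-Tt) and proline (mt-Tp). Another 7 had 1 to 87 counts over all libraries and were not tested (mt-Tf, mt-Tv, mt-Tw, mt-Tr, mt-Ts2, mt-Tl2 and mt-Te). The tRNA share of mitochondrial counts was 0.121, 0.072, 0.078 and 0.351% in cortical 1 to 4 and 0.077, 0.079, 0.093 and 0.134% in subcortical 1 to 4, so that mouse 4 was highest in both regions. The means were 0.155 ± 0.132% and 0.096 ± 0.027% (SD, n = 4, exact permutation p = 0.686, exact sign-flip p with the mice as pairs = 0.5). Without cortical 4 the difference turned from 0.060 to -0.0055 percentage points.

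Of the 8 tested tRNA genes, 7 had their highest level in cortical 4. The most abundant, mt-Tm, stood at 33.3, 29.8, 24.1 and 138 CPM in cortical 1 to 4 and at 52.1, 40.6, 29.2 and 57.3 CPM in subcortical 1 to 4. Next to it, mt-Tl1 stood at 20.7, 16.3, 17.4 and 93.6 CPM against 21.5, 14.3, 15.3 and 36.3 CPM. Mouse 4 was highest for both genes in each region. The exception was mt-Tt, the threonine tRNA gene that follows mt-Cytb, whose highest level was 20.5 CPM in subcortical 2. Its counts were 1, 3, 6 and 24 in cortical 1 to 4 and 23, 43, 13 and 10 in subcortical 1 to 4, and its log2 fold change was -2.15 (SE 0.89, edgeR adjusted p = 0.190). Without cortical 4 it was -3.45 with an adjusted p of 0.035. None of the other tRNA genes was called, with log2 fold changes of -0.44 to 0.94.

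**Figure D5:**
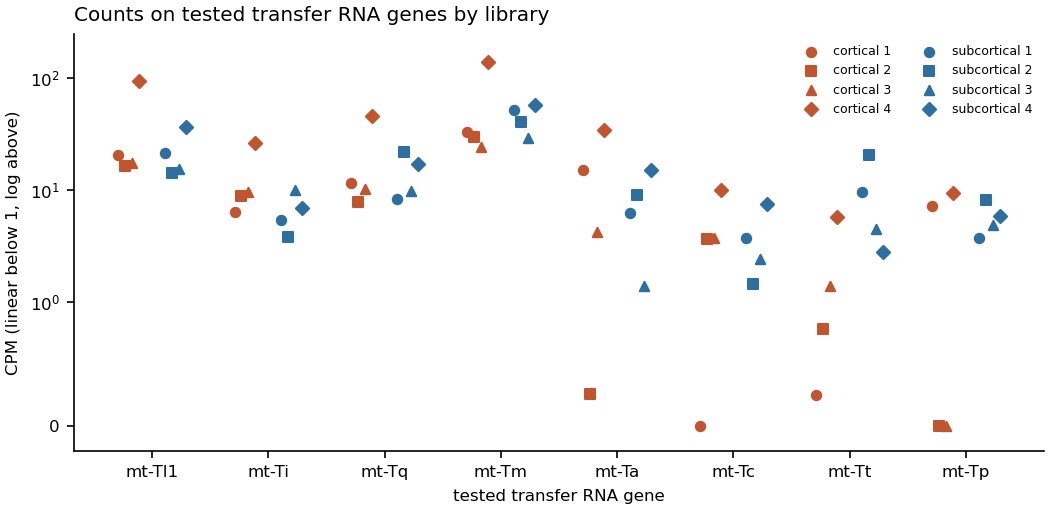
CPM (linear below 1, logarithmic above) of the 8 tested tRNA genes in each library, with a symbol for each mouse and a colour for each region. Cortical 4, the orange diamond, is highest for every gene but mt-Tt, and reaches 138 CPM for mt-Tm.

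The title of the series concerns female mice, so the sexes were compared as well, with the mouse as the replicate. Averaged over the regions of a mouse, the mitochondrial share of gene counts was 11.8 and 9.61% in the females (mice 2 and 3) and 11.3 and 11.4% in the males (mice 1 and 4). The females thus lay on both sides of the males (10.7 ± 1.53% against 11.4 ± 0.10%, SD, n = 2, exact permutation p = 1.00, smallest possible 0.333). On counts summed per mouse, edgeR's quasi-likelihood test called 0 of 18 tested members and DESeq2 called 0. An unadjusted p under 0.05 was found for 4 of the 18, beside 500 of all genes tested (3.73%). Over all genes 5 of 13402 were called (0.0373%), 1 higher in females (0.00746%) and 4 lower (0.0298%). The log2 fold changes (female minus male) of the members ran from -2.52 for mt-Ta to 0.36 for mt-Tt, with a median of -0.42 beside 0.00072 for all genes. Leaving out mouse 1 makes mouse 4 the only male and assumes that it varies like the females, so calls of that fit are not read here. The members that fit picked out were mt-Tl1, mt-Tm, mt-Ta, mt-Rnr1 and mt-Rnr2. Their log2 fold changes were -2.04, -1.74, -2.96, -0.84 and -0.61.
Whether the regional difference itself differed between the sexes was tested as an interaction. By edgeR's quasi-likelihood test 0 of 20 tested members were called, and 0 by DESeq2, beside 0 of 13334 genes called in all (0%). An unadjusted p under 0.05 was found for 2 of the 20, beside 502 of all genes tested (3.76%). Without subcortical 2, which leaves 1 female subcortical library, the log2 interaction of mt-Nd4 was 1.40, and no call is read from that fit.

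Genes of the nucleus that serve the mitochondrial genome were followed in 8 lists. Of their 107 tested members 3 were called by region (2.8%), 2 higher and 1 lower in cortical cells, beside 6.81% of all tested genes, 3.42% higher and 3.39% lower. Of 11 tested genes for transcription and replication of mitochondrial DNA, 0 were called higher and 0 lower in cortical cells, with a median log2 fold change of -0.19. The smallest p was that of Mgme1, which encodes a nuclease of mitochondrial DNA maintenance, with means of 7.10 ± 4.66 and 13.1 ± 8.31 CPM (SD, n = 4, edgeR adjusted p = 0.548). Chosen after their values were seen, as textbook factors, are Polrmt, the mitochondrial RNA polymerase gene, at 9.67 ± 4.24 against 12.7 ± 1.67 CPM, and Tfam, which encodes a packaging and transcription factor, at 21.2 ± 8.80 against 23.2 ± 7.23 CPM (SD, n = 4). Of 26 tested genes for mitochondrial RNA processing, polyadenylation and decay, 0 were called, with a median of 0.18. The smallest p there belonged to Fastk, which encodes a mitochondrial RNA-binding protein, with means of 42.3 ± 9.11 and 23.3 ± 4.93 CPM (SD, n = 4, edgeR adjusted p = 0.058). Also chosen after their values were seen, the poly(A) polymerase gene Mtpap stood at 19.7 ± 2.68 against 16.7 ± 1.33 CPM and Lrpprc, whose product stabilises mitochondrial mRNAs, at 61.1 ± 20.5 against 81.7 ± 22.6 CPM (SD, n = 4).

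Among nuclear partners of the mitochondrially encoded subunits, 0 of 16 complex I genes and 0 of 14 ATP synthase genes were called. Of 10 complex III genes 1 was higher, Uqcrh, which encodes the hinge subunit, with means of 297.2 ± 28.2 and 191.5 ± 21.6 CPM (SD, n = 4, log2 fold change 0.63, edgeR adjusted p = 0.016). It was thus higher in cortical cells, opposite in sign to mt-Cytb of the same complex. This call was lost without cortical 2, cortical 3 or subcortical 2. Of 15 complex IV genes 1 was higher and 1 lower. Cox10, which encodes an enzyme of haem A synthesis, had means of 276.3 ± 16.5 and 79.8 ± 22.9 CPM (SD, n = 4, log2 fold change 1.79, edgeR adjusted p = 1.4e-06). The levels of Cox7b, a small oxidase subunit gene, were 179.3 ± 17.8 and 288.9 ± 21.0 CPM (SD, n = 4, log2 fold change -0.69, edgeR adjusted p = 0.0075). Complex II, which has no mitochondrially encoded subunit, had 0 of 6 called. The smallest p was that of Sdhc, with means of 110.8 ± 22.0 and 183.9 ± 62.4 CPM (SD, n = 4, edgeR adjusted p = 0.060), which was called lower when blocked by mouse (edgeR adjusted p = 0.021). Regulators of mitochondrial biogenesis had 0 of 9 called, among them Nrf1 with means of 51.1 ± 10.1 and 30.4 ± 7.18 CPM (SD, n = 4, edgeR adjusted p = 0.088).

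Markers of the cell types that the sort could hold were summed per library. Beside the calls given here, 3.42% of all tested genes were called higher and 3.39% lower in cortical cells. All 10 astrocyte markers were detected, with 25971 to 28256 CPM in cortical and 17919 to 19931 CPM in subcortical libraries. The gap in that sum came mostly from Slc1a2 and Slc1a3, the glutamate transporter genes, which were called higher in cortex (means of 9645 and 5487 CPM, and of 5778 and 2393 CPM). Aqp4, the water channel gene, was called lower in cortex (480.2 and 1041 CPM), and the other 7 were not called. The 10 markers of the oligodendrocyte lineage summed to 1062 to 1489 against 2486 to 5978 CPM, highest in subcortical 1, and 7 of 9 tested were called lower in cortical cells. Neuronal markers summed to 611 to 945 against 401 to 502 CPM. Of 9 tested, Nrgn and Slc17a7 were called higher in cortex and Nefl lower (log2 fold change -1.71), and Nrgn, with means of 194.5 and 8.68 CPM, made up most of the gap. Microglial markers summed to 157 to 356 against 116 to 191 CPM, with 3 of 8 called higher in cortex (C1qa, Csf1r and Cx3cr1). Endothelial and mural markers summed to 439 to 986 against 311 to 1137 CPM, with Tek and Cdh5 at 0 and 0 of 5 called. Ependymal markers summed to 68.5 to 139 against 107 to 149 CPM, with 1 of 6, Foxj1, called lower in cortex. Subcortical 1, highest in oligodendrocyte markers, also had the highest mitochondrial share of gene counts and the highest mt-Cytb, mt-Nd3 and mt-Nd1 levels. As a percentage of TMM-scaled library size, the share was highest in subcortical 2 (15.6%, beside 15.3% in subcortical 1). Levels of mt-Nd4, mt-Nd2 and mt-Nd5 peaked in subcortical 2, and those of both rRNAs in subcortical 4. Oligodendrocyte markers summed to 3180 CPM in subcortical 3 and 2486 CPM in subcortical 4, with mitochondrial shares of 9.40 and 11.6%. The part of other cells in the mitochondrial counts was not tested.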

How the data were processed

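The authors deposited whole-number read counts per gene, 1 table per sample, with 55417 gene rows and 5 closing summary rows. Per the submitters' processing notes the build was GRCm39 and the tools were STAR 2.6.0, HTSeq 0.9.0, DESeq2 1.35.0 and FastQC 0.11.5. The sources used here give no settings, strand or molecular identifiers. Reads without a feature were 30.2 to 40.7% and ambiguous reads 0.38 to 0.55% of a library and stayed out of totals and tests. A series-wide table of normalized values was not used.

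Region, sex and mouse were taken from the sample labels. Region was tested on all genes with edgeR 4.0.16 (R 4.3.3; filterByExpr with 10 counts in 4 libraries and 15 in total, TMM, quasi-likelihood), sex on counts summed per mouse, and the interaction on 4 groups of 2. DESeq2 1.42.0, RLE factors, other filters, scaling without mitochondrial genes, sex as covariate, a mouse block and leaving out libraries were alternatives. Shares were compared with exact permutation tests. Code was tested on simulated data. Sequences were GENCODE M21 transcripts (GRCm38), compared in 50-base windows on both strands and with blastn 2.17.0. No coordinates are given, since the builds differ.

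The members and lists were chosen with earlier results of these data known. Every member that passed the filter is named, with values per library for the 8 most abundant and those called. Genes of a nuclear list were named from its 3 smallest p-values, except where the text says that they were chosen after their values were seen. Same-numbered samples come from the same mouse. The residuals of a mouse's libraries around their regional means had correlations of 0.019 to 0.059 across genes, against -0.084 to 0.047 for different mice. These ranges overlap, so the pairing rests on the labels. Chi-square divided by its degrees of freedom was 12.2 to 24.9 between libraries of 1 region, above sampling noise. Nothing in the labels says whether mice share a litter.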

Additional observations from a re-analysis of the deposited data

Results flagged for a closer look

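Cortical 4 stood far from the other 3 cortical libraries for 4 tRNA genes. Its level was 93.58 CPM for mt-Tl1 (others 16.3 to 20.7), 26.09 CPM for mt-Ti (6.41 to 9.52), 45.47 CPM for mt-Tq (7.77 to 11.6) and 138.3 CPM for mt-Tm (24.1 to 33.3). In each case the gap to the nearest library exceeded Dixon's 95% limit for 4 samples, and 4 of 44 groups of libraries examined did so. Chance flags about 1 in 20 of independent groups, but these 4 all stem from cortical 4 and are not independent of each other. The same library had the highest rRNA share among the cortical ones.

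The tRNA share of mitochondrial counts was lower in the cortical library of both females and higher in that of both males, with mean differences of -0.011 and 0.130 percentage points, -0.1414 apart. This difference between the sexes was not tested. The male differences were 0.044 in mouse 1 and 0.217 in mouse 4, so their mean leans on cortical 4. Such splits of sign were looked for in 22 items, and so few mice can show them by chance. For mt-Tp, the proline tRNA gene, the mean difference was -6.49 CPM in females and 3.47 CPM in males, -9.963 apart. Both female cortical libraries had 0 counts for it, and edgeR's interaction test over all genes gave an adjusted p of 1.00.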

How the results depend on the processing

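The count of 2 members called by region (beside 6.81% of all tested genes) was also 2 with RLE factors (6.82%) and DESeq2 (8.74%). It was 2 with a 5 CPM filter (7.77%) and scaling without mitochondrial genes (6.82%), and 3 without a filter (4.88%). With the mouse as a replicate block it was 1 (7.52%), and 1 with sex as a covariate (6.91%). It was 0 at an adjusted p of 0.01 and 0 to 5 without single libraries (0 without cortical 1, cortical 3 or subcortical 1, 1 without cortical 2, 5 without subcortical 3). For the stricter threshold and for fits without single libraries, the share of all genes called is not given here. Without cortical 4 the 2 were mt-Rnr2 and mt-Tt. In all settings run, mt-Nd3 and mt-Cytb kept a negative sign; mt-Nd3 was called in 11 of 15 alternatives and mt-Cytb in 7 of 15. Of the members' 267 fold changes under alternatives, 12 lost and 7 gained a call, and 10, none of them called, turned sign. Without cortical 4, 5 tRNA genes turned, and without single libraries the log2 fold change ran from -0.28 to 1.116 for mt-Tl1, -0.53 to 0.67 for mt-Tq, -0.62 to 0.58 for mt-Tm, -0.28 to 1.29 for mt-Ta and -0.64 to 0.77 for mt-Tc, each lowest without cortical 4. For mt-Nd6 it ran from -0.34 to 0.081, and mt-Tc also turned without subcortical 2 (-0.072). With the replicate block mt-Tm was at -0.0081 and mt-Tc at -0.14. The block changed no call other than that of mt-Cytb among the members. By sex 3 members (mt-Tl1, mt-Tm and mt-Ta) were called lower in females without a filter. The share of all genes called in that setting is not given here. Fits by sex without single mice, and of the interaction without single libraries, leave 1 sample in a group, and their calls are not counted.

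The difference in mitochondrial share by region stayed negative in every alternative run, from -1.24 to -2.65 without single libraries. The rRNA share difference of -0.83 percentage points became 0.0017 as a log2 ratio and lay between -4.24 and 2.14 without single libraries, and that of the tRNA share between -0.0055 and 0.087. The difference in mitochondrial share by sex lay between -1.75 and 0.42 without single mice. Nuclear list members called by region were 3 (beside 6.81% of all tested genes) and 4 with the replicate block (7.52%). They were 2 to 4 without single libraries, where the share of all genes is not given here. The causes were not tested. Depth limits the tRNA genes and mt-Nd3 most, since 3 counts, the limit that a count of 0 allows, are 0.70 to 1.43 CPM per library on TMM-scaled library sizes (counting error only).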
